A study of Mus musculus with 4 samples.

Results

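The genes described here are those of the cytosolic ribosomal proteins, the protein parts of the small (40S) and large (60S) subunits of the ribosome that translates most cellular mRNA. They were chosen by name alone: a gene on the array was a member if its symbol was Rpl or Rps followed by a number and at most a short suffix, or Rpsa, Rplp0, Rplp1 or Rplp2, with the ribosomal S6 kinases and pseudogenes left out. This gave 84 genes of 37004 named on the array, 33 of the 40S and 51 of the 60S subunit, with 182 probes on 767 spots. In 7 of them, the paralogue-like genes, the symbol carries a suffix that marks a gene resembling another member: Rpl3l, Rpl7l1, Rpl10l, Rpl22l1, Rpl39l, Rps4l and Rps27l. The remaining 77 are called the core genes below.

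Ribosomal protein mRNAs are among the most abundant mRNAs of any cell, and in mammals most of them begin with a cytosine followed by a run of pyrimidines, the 5′ terminal oligopyrimidine (TOP) tract. Through this tract the growth-sensing kinase mTOR, with the binding protein Larp1, controls the translation of these mRNAs as a group. Quiescent naive T cells hold few ribosomes and make many more after antigen receptor stimulation, which needs new rRNA, assembly factors and ribosomal proteins.

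RNA was measured on single-colour arrays with 1 array for each of 4 groups, naive T cells and iTreg 3 h cells of WT and of Nr4a-TKO origin. Naive T cells were CD4+ cells with low CD25, low CD44, high CD62L and no Foxp3, sorted from spleen and lymph nodes of irradiated Rag2-/- mice rebuilt with bone marrow. The Nr4a-TKO cells (Ly5.2, carrying floxed Nr4a1 and Nr4a2 alleles and Nr4a3-/-) came from recipients of WT (Ly5.1) and Nr4a-TKO marrow together, whereas the WT cells came from recipients of WT marrow alone, so that genotype and the kind of chimera cannot be told apart. The mice of the study were C57BL/6J. What drives deletion of the floxed alleles, and how many animals gave each RNA, is not given in the sources used here. The iTreg 3 h cells were naive cells of each kind cultured for 3 h with plate-bound anti-CD3 at 2 µg/ml, anti-CD28 at 0.5 µg/ml, anti-IFN-γ, anti-IL-4, IL-2 at 10 ng/ml and TGF-β1 at 0.2 or 0.5 ng/ml, conditions that steer naive cells towards induced regulatory T cells. The naive cells were not cultured, so stimulation, cytokines and time in culture change together in the comparison of 3 h with naive. No group had a replicate, so a difference between arrays is a value with no test and no p-value.

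The level of a gene is the log2 of the processed signal of its brightest probe minus the 75th percentile of all probes on that array, so a level of 0 is the 75th percentile and a difference of 1 is 2-fold. Levels are relative to the rest of each array and say nothing of the amount of RNA per cell, and in bulk RNA fewer cells of a type and less RNA per cell cannot be told apart. Member probes printed on 10 spots had a median SD of 0.0432 between spots, which makes an SD of 0.06 for the log2 difference of a probe with 1 spot and 0.02 for one with 10 spots. These SDs cover the array and not mice or cultures. As a check of the labels, 6 probes for Nr4a1, Nr4a2 and Nr4a3 were read. On the array labelled Nr4a-TKO iTreg 3 h, 2 of the 6 were lower than on WT iTreg 3 h. Both were for Nr4a3, at -1.97 and -1.55, while the third Nr4a3 probe was 0.22 higher. The Nr4a1 probe was 0.50 higher and the Nr4a2 probes 1.38 and 1.41 higher. In naive T cells 1 of the 6 was lower, an Nr4a3 probe at -0.37, and the others were 0.05 to 1.29 higher. Whether these probes lie in the deleted parts is not given in the sources used here, and every genotype difference below is one between arrays as labelled. The 5 measured T cell markers and the 4 naive T markers gave signal well above background on each array, and 5 of 5 activation genes (Cd69, Egr1, Myc, Il2, Nr4a1) were higher at 3 h on both pairs of arrays. Of other cell types, 5 of 5 B cell markers, 2 of 2 CD8 T, 2 of 5 myeloid, 0 of 2 NK and 2 of 3 erythroid markers were well above background on each array, while Adgre1, Ncr1 and Hbb-b1, which mark macrophages, NK cells and red cells, were not on any. The summed level of the B cell markers was 2.86 and 3.31 on the naive arrays (WT first) and 2.26 and 3.11 on the 3 h arrays. That of the myeloid markers lay between 8.62 and 8.94 and came mostly from the Itgam probe (8.51 to 8.84), while Lyz2 lay between -3.36 and -2.69.

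Ribosomal protein genes were bright and nearly level across the 4 arrays. Of the 84 genes, 81 were well above background on each array, and no member spot was saturated, the highest signal lying between 29841 and 31047 intensity units per array. The genes' median signal before scaling was 7331 and 7058 units on the naive arrays (WT first) and 8325 and 8223 units on the 3 h arrays. Of the 77 core genes, 76 passed that filter on every array, and all 76 stayed within 1.5-fold in each of the 4 differences, the largest being 0.57 on the log2 scale. The exception among the 77 was Rpl37, described below with the dim genes. Over all genes, 18.6% were more than 1.5-fold higher and 21.6% lower at 3 h in WT, and 17.8% and 20.2% in Nr4a-TKO. Between genotypes those shares were 7.10% and 7.34% in naive T cells, and 8.10% and 6.84% at 3 h. Of the 865 genes on the array as bright as most members, 88.9% and 89.7% stayed within 1.5-fold at 3 h in WT and Nr4a-TKO, and 98.8% and 99.2% did so between genotypes in naive T cells and at 3 h.

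**Figure D1:**
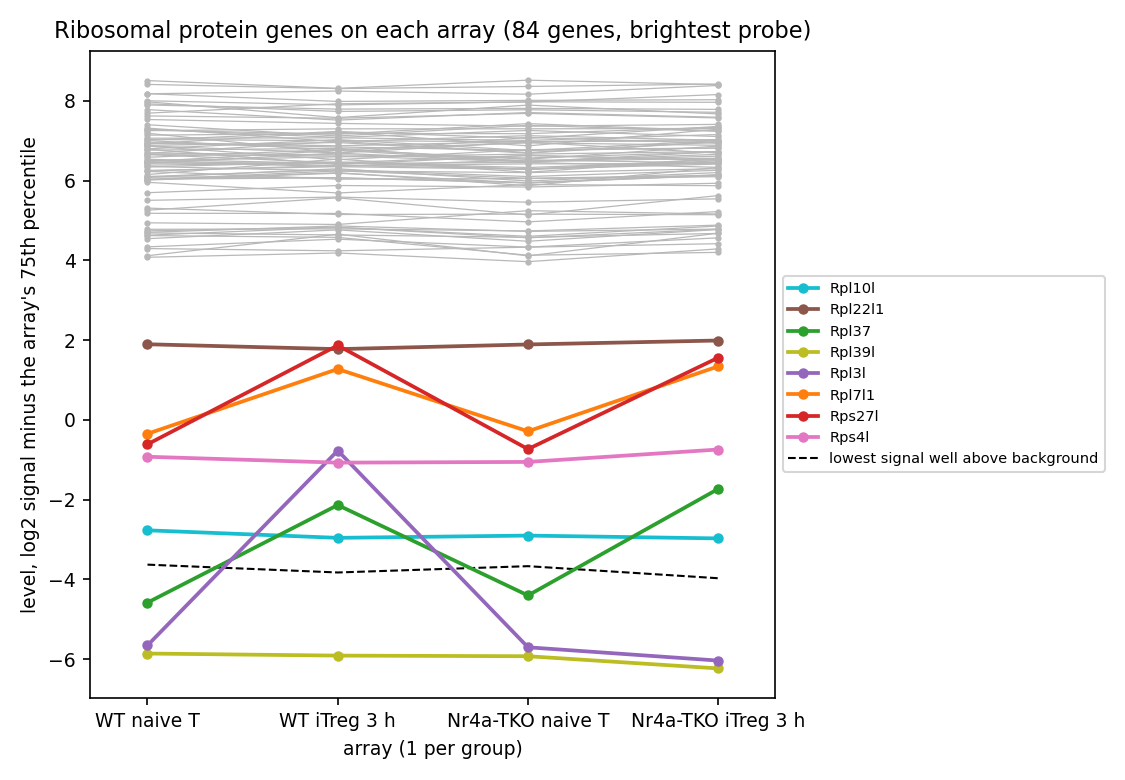
Level (log2 signal minus the array's 75th percentile) of 84 ribosomal protein genes on the 4 arrays, 1 line per gene. Grey lines are 76 core genes, which run nearly flat; the coloured lines are the 7 paralogue-like genes and Rpl37, and the dashed line is the lowest signal counted as well above background on each array.

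The first comparison asked what 3 h of iTreg culture does to WT naive T cells. Relative to WT naive T, WT iTreg 3 h had 4 ribosomal protein genes more than 2-fold higher of 83 measured and 0 lower. Over all 26610 genes measured in this comparison, the share past 2-fold was 9.91% upwards and 11.1% downwards. The members' median difference was 0.01, beside -0.10 over all genes, and their interquartile range was 0.30 wide against 0.89 over all genes. Most members are bright. For their median and spread, the 865 genes at or above the lower quartile of the members' levels (5.52) are the closer comparison. These 865 include the members at or above that level. Their median was -0.14 and their interquartile range 0.31 wide, with 3.12% past 2-fold upwards and 1.85% downwards. The 4 members past 2-fold were Rps27l, Rpl7l1, Rpl37 and Rpl3l, with levels of at most 1.87. They lay below 5.52, so these shares are not matched to them in brightness.

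On the Nr4a-TKO arrays, 3 of 82 measured members were more than 2-fold higher at 3 h and 0 lower, where 9.29% of 27182 genes were higher and 9.89% lower. The members' median difference was 0.10, beside -0.05 over all genes. Among the 865 bright genes, 3.58% were higher, 1.39% lower and the median was -0.06. The 3 members past 2-fold, Rps27l, Rpl7l1 and Rpl37, lay below the level of the bright genes here too. At a smaller threshold of 1.25-fold, 3 of 77 core genes were higher and 5 lower in WT, where 26.9% of all genes were higher and 34.9% lower, and of the 865 bright genes 11.2% (97) were higher and 156 lower. The same threshold gave 7 of 77 higher and 0 lower in Nr4a-TKO, where 27.3% of all genes were higher and 32.0% lower, and of the bright genes 12.4% (107) were higher and 109 lower.

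**Figure D2:**
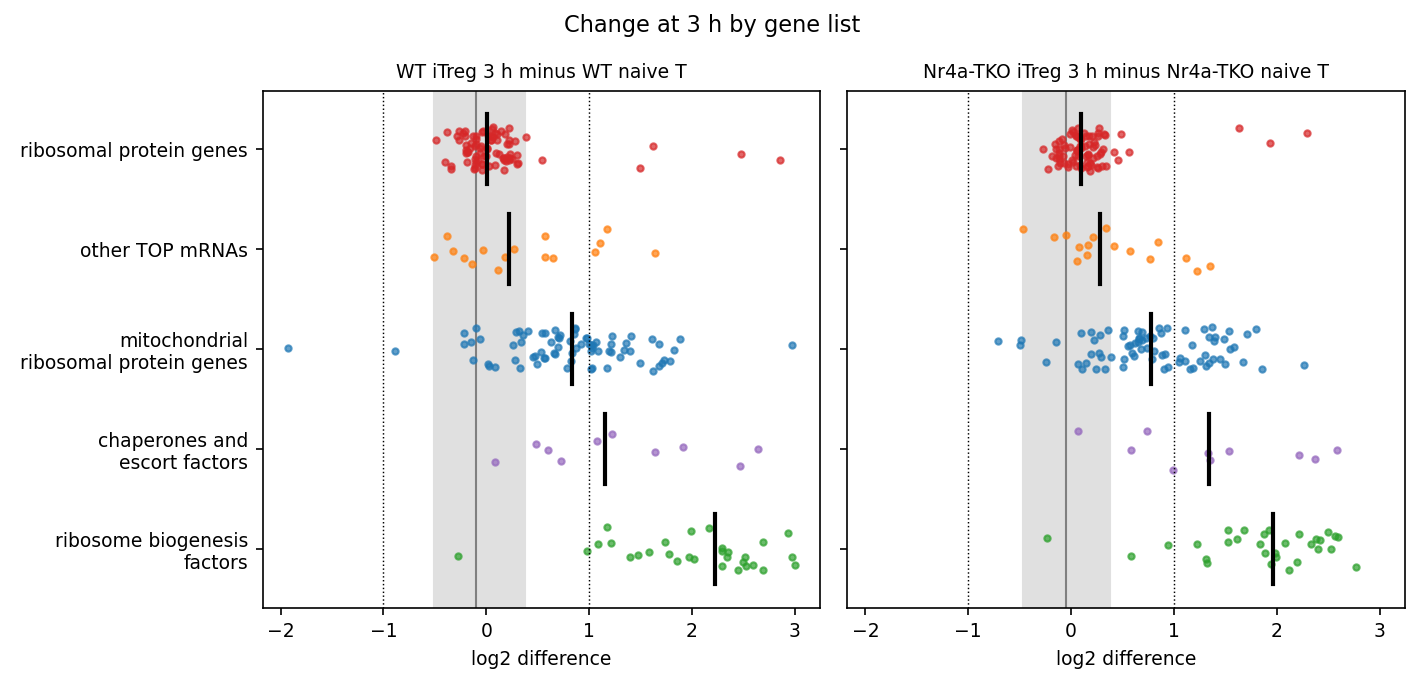
Log2 difference between 3 h and naive for WT (left) and Nr4a-TKO (right), 1 point per gene, with a black bar at each list's median; the grey band is the interquartile range of all genes, the grey line their median, and the dotted lines are 2-fold. Ribosomal protein genes lie close to 0, with medians of 0.01 and 0.10, while ribosome biogenesis factors have medians of 2.23 and 1.96.

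The genes of the factors that assemble ribosomes had far larger differences at 3 h than the genes of the ribosomal proteins. The lists that follow were written from general knowledge with earlier results of these data known, and are described by counts alone. Of 30 ribosome biogenesis factors, 28 were more than 2-fold higher at 3 h in WT and 27 in Nr4a-TKO, with medians of 2.23 and 1.96 and none lower. Ncl, the nucleolar protein nucleolin, had a level of 4.80 on WT naive T and 7.25 on WT iTreg 3 h, and 4.82 and 7.24 on the Nr4a-TKO arrays. Mrto4, an assembly factor that holds the place of Rplp0 on the nascent 60S subunit, differed by 3.00 in WT and 2.5 in Nr4a-TKO. Rplp0 itself differed by -0.05 and 0.07. The 2 biogenesis factors not past 2-fold in WT were Ubtf, an activator of rRNA transcription, at -0.28 and Bop1, an assembly factor of the 60S subunit, at 0.98.

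Proteins that escort ribosomal proteins to assembly were higher as well, with 6 of 10 past 2-fold in both WT and Nr4a-TKO. Grwd1, the chaperone of Rpl3, differed by 2.64 in WT and 2.59 in Nr4a-TKO, whereas Rpl3 differed by -0.34 and 0.04. Rrs1, which brings Rpl5 and Rpl11 with 5S rRNA into the 60S subunit, differed by 2.47 and 2.22. Rpl5 and Rpl11 themselves differed by -0.04 and -0.06 in WT and by 0.09 each in Nr4a-TKO. A dimmer Rpl11 probe, listed with no RefSeq mRNA, differed by 0.86 in WT and 0.68 in Nr4a-TKO. Ltv1, which binds Rps3 during assembly of the small subunit, differed by 1.91 and 2.37. Tsr2, the escort of Rps26, was higher by 1.08 in WT and 1.54 in Nr4a-TKO, the latter a lower bound because its probe was not well above background on Nr4a-TKO naive T, and Rps26 differed by 0.10 and 0.07.

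Ribosomal proteins of the mitochondrion, which are encoded by other nuclear genes and serve the mitochondrial ribosome, also differed from the cytosolic set. Of 76 genes, 29 were more than 2-fold higher and 1 lower in WT, and 28 higher and 0 lower in Nr4a-TKO, with medians of 0.83 and 0.78. Mrps6 was the highest of them, at 2.98 in WT and 2.27 in Nr4a-TKO. The 16 TOP mRNAs that encode no ribosomal protein lay between: 4 were past 2-fold higher in WT (Npm1 1.18, Hnrnpa1 1.1, Nap1l1 1.64 and Eif4b 1.06) and 3 in Nr4a-TKO, with medians of 0.23 and 0.28. Within that list the elongation factors Eef1a1 (-0.14 and 0.06) and Eef2 (-0.32 and -0.17) lay near the ribosomal protein genes. Fau, Rack1 and Rpl36al, which belong to the ribosome but fall outside the naming rule, differed by -0.14, 0.12 and 0.42 in WT.

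Among 14 regulators of TOP mRNA translation, 4 were more than 2-fold higher on both pairs of arrays. Eif4ebp1, a repressor of cap-dependent translation that mTOR inactivates, had a level of -2.31 on WT naive T and 1.26 on WT iTreg 3 h, a difference of 3.56. On the Nr4a-TKO arrays it had levels of -2.21 and 0.78, a difference of 2.99. Larp1, which binds the TOP tract, differed by 1.72 and 1.63, and Larp4 by 2.15 and 1.88. Cnbp differed by 1.1 and 1.0. Rptor, the mTOR partner that recognises substrates, differed by -1.83 in WT, its level being 1.27 on WT naive T, -0.20 on Nr4a-TKO naive T, and -0.56 and -0.67 on the 3 h arrays. Of 9 genes of ribosomal protein modification and ribosome surveillance, 4 were past 2-fold higher in WT and 2 in Nr4a-TKO, none lower. The members past 2-fold in both were G3bp1 (1.73 and 1.58) and Usp10 (1.61 and 1.5), which form a complex that removes ubiquitin from 40S proteins.

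Among the 81 members well above background on each array, the largest differences at 3 h were those of 2 paralogue-like genes. Rps27l resembles Rps27, a zinc-finger protein of the 40S subunit, and is known as a target of p53. Its brightest probe had a level of -0.61 on WT naive T, -0.73 on Nr4a-TKO naive T, 1.87 on WT iTreg 3 h and 1.56 on Nr4a-TKO iTreg 3 h. Both 3 h arrays were above both naive arrays, by 2.48 (5.58-fold) in WT and 2.29 (4.90-fold) in Nr4a-TKO. Its second probe gave 2.27 and 2.29. Rps27 differed the other way in WT, by -0.34, and by -0.12 in Nr4a-TKO.

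Rpl7l1 resembles Rpl7, a protein of the 60S subunit, and is known from pre-60S particles. Its only probe had a level of -0.35 on WT naive T, -0.29 on Nr4a-TKO naive T, 1.27 on WT iTreg 3 h and 1.34 on Nr4a-TKO iTreg 3 h. The differences were 1.62 (3.08-fold) in WT and 1.63 (3.09-fold) in Nr4a-TKO, and Rpl7 differed by 0.20 and 0.33. The probe sequences behind both values, as given in the array files with mm9 coordinates, are shown because these members stood apart from the core genes. The Rps27l probe lies on the plus strand at chr9:66793986-66794695, across a splice junction, and the Rpl7l1 probe on the minus strand at chr17:46915373-46915432.
Rps27l: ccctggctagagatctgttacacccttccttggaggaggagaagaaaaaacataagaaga
Rpl7l1: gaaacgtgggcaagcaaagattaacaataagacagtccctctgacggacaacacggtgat

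Apart from Rpl3l, given below as a bound, the other paralogue-like genes did not follow these. Rpl22l1, the paralogue of Rpl22, which is known for its role in T cell development, had levels of 1.90 and 1.89 on the naive arrays (WT first) and of 1.77 and 1.99 on the 3 h arrays. Rpl10l, known from the testis, stayed between -2.97 and -2.77 on the 4 arrays. Rps4l, whose listed transcript is non-coding, stayed between -1.07 and -0.74. Rpl39l, also known from the testis, was not well above background on any array.

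For the remaining members more than 2-fold higher, the naive arrays gave only a bound. Rpl37, a zinc-binding protein of the 60S subunit, has 1 probe on 1 spot, which was well above background on the 2 arrays of 3 h cells alone. Its levels were -4.58 on WT naive T, -4.40 on Nr4a-TKO naive T, -2.14 on WT iTreg 3 h and -1.73 on Nr4a-TKO iTreg 3 h. Set against the lowest signal counted as well above background, WT was at least 2.82-fold higher at 3 h and Nr4a-TKO at least 3.83-fold higher. The signal was 21.7 and 27.3 intensity units at 3 h, where the members' median was 8325 and 8223 units (WT first). Whether this probe reads the Rpl37 mRNA was not tested, so its differences may not be those of the gene. Rpl3l, the paralogue of Rpl3 that striated muscle uses, was well above background on WT iTreg 3 h alone, at a level of -0.77 from 1 spot. Its level was -5.65 and -5.70 on the naive arrays (WT first) and -6.04 on Nr4a-TKO iTreg 3 h. Rpl3l on WT iTreg 3 h was at least 7.26-fold higher than on WT naive T, and at least 9.19-fold higher than on Nr4a-TKO iTreg 3 h. Where a probe had to pass the background filter on all 4 arrays, the count of members more than 2-fold higher was 2 in WT and 2 in Nr4a-TKO, Rps27l and Rpl7l1.

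Small differences among the core genes recurred on both pairs of arrays. The WT and Nr4a-TKO changes at 3 h share no array. Over 76 core genes, Pearson's r between them was 0.83 and Spearman's rho 0.85, and 59 of 76 had the same sign. This is a correlation across genes, which are not independent replicates, and both changes share the same probes and their brightness. No such correlation over other genes is given here, so it does not set the members apart. The Nr4a-TKO change was the higher in 59 of 76 genes, by a median of 0.12, where the medians over the 865 bright genes were -0.14 in WT and -0.06 in Nr4a-TKO. Under the RMA steps the members' medians were 0.0187 in WT and 0.0113 in Nr4a-TKO, so that the Nr4a-TKO median was no longer the higher. For 44 core genes with a second suitable probe, the differences from the brightest and the second probe had an r of 0.89 and a rho of 0.87 in WT, and 0.76 and 0.72 in Nr4a-TKO. The sign was the same in 35 and 36 of 44, and the median gap was 0.06 and 0.08.

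**Figure D3:**
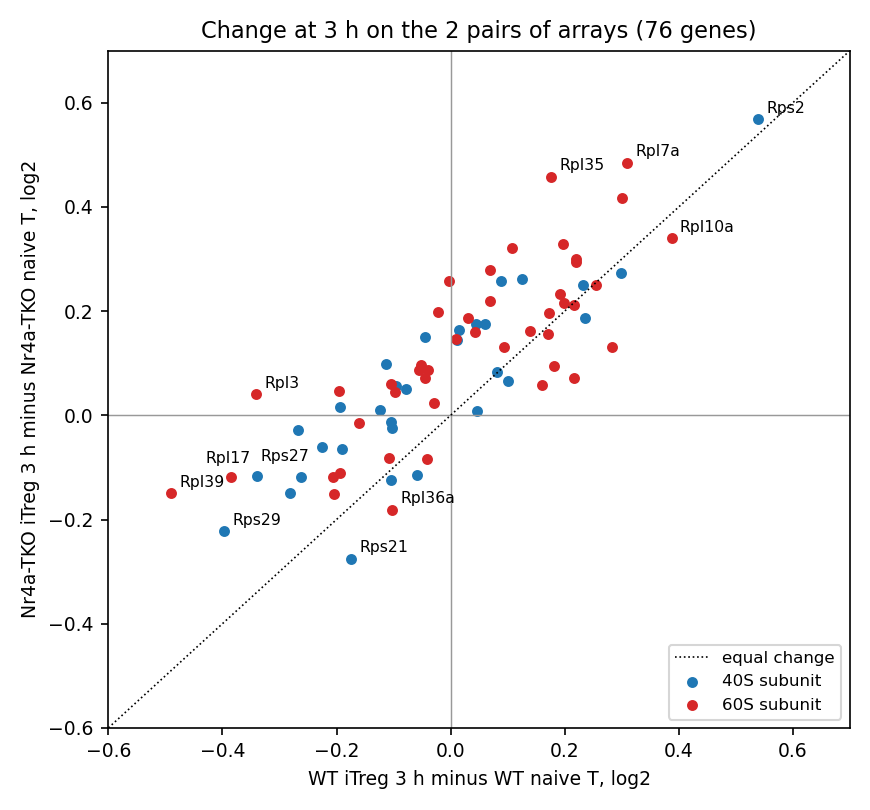
Log2 change at 3 h in WT (horizontal) against Nr4a-TKO (vertical) for 76 core ribosomal protein genes, with 40S genes in blue, 60S genes in red and the dotted line where both are equal. The genes follow the line (r of 0.83), Rps2 lies farthest up at 0.54 and 0.57, and Rpl39 farthest left at -0.49.

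Rps2, a 40S protein at the mRNA entry channel, was the core gene with the largest difference among those measured on each array. It had a level of 4.12 on WT naive T, 4.11 on Nr4a-TKO naive T, 4.65 on WT iTreg 3 h and 4.68 on Nr4a-TKO iTreg 3 h, from 10 spots. The differences of 0.54 and 0.57 were far above the spot SD, which covers the array alone, and both of its measured probes gave values above 0, from 0.41 to 0.57. Rpl10a, which forms the L1 stalk of the 60S subunit, had levels of 6.15 and 6.21 on the naive arrays (WT first) and of 6.54 and 6.55 at 3 h. Its 3 probes gave from 0.39 to 0.59 in WT and from 0.31 to 0.52 in Nr4a-TKO. Rpl7a, of the 60S subunit, differed by 0.31 in WT and 0.49 in Nr4a-TKO, with 0.37 and 0.41 from its second probe. Rpl35, which lies at the mouth of the peptide exit tunnel, differed by 0.18 and 0.46.

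Rpl39, a small protein that lines the exit tunnel, was the lowest in WT. Its levels were 7.19 on WT naive T, 7.08 on Nr4a-TKO naive T, 6.70 on WT iTreg 3 h and 6.93 on Nr4a-TKO iTreg 3 h. All 5 of its probes were below 0 in WT, from -0.52 to -0.25, and 4 of 5 in Nr4a-TKO, from -0.27 to 0.07. Rpl17, another protein of the exit tunnel, differed by -0.39 in WT and -0.12 in Nr4a-TKO, with all 3 probes below 0 on both pairs. Rpl3, which reaches towards the peptidyl transferase centre, differed by -0.34 in WT, where its 3 probes gave from -0.48 to -0.34, and by 0.04 in Nr4a-TKO, where they gave from -0.26 to 0.04 with 2 of the 3 below 0. Rps29, one of the genes mutated in Diamond-Blackfan anaemia, differed by -0.40 and -0.22. The lowest in Nr4a-TKO was Rps21, of the 40S subunit, at -0.28 (-0.17 in WT), followed by Rps29, by Rpl36a, which contacts the exit-site tRNA (-0.18, and -0.10 in WT), by Rpl12, at the base of the stalk (-0.15 and -0.20), and by Rps18, in the head of the 40S subunit (-0.15 and -0.28). The probes of Rps27 list a transcript of Rps27rt as well, and the brightest probes of Rps27 and Rps29 are placed in the files on another chromosome than RefSeq gives for the gene, so these values are uncertain where near-identical copies share signal. The same holds for Rpl14, Rpl22l1, Rplp2 and Rps26, whose brightest probes also list another gene or pseudogene.

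The members with roles beyond the ribosome lay within the core. Rps6, the substrate of S6 kinase downstream of mTOR, had levels of 6.50 and 6.42 on the naive arrays (WT first) and of 6.38 and 6.43 at 3 h. It differed by -0.12 in WT and 0.01 in Nr4a-TKO. Rpl5 and Rpl11, which with 5S rRNA bind Mdm2 when assembly is disturbed, gave levels from 6.47 to 6.65 and from 4.24 to 4.42 over the 4 arrays. Rps27a, which is made as a fusion with ubiquitin, differed by 0.12 and 0.26, and Rpsa, also known as the laminin receptor, by 0.01 and 0.15. The stalk proteins Rplp0, Rplp1 and Rplp2, which recruit elongation factors, differed by -0.05, -0.04 and -0.10 in WT and by 0.07, -0.08 and 0.05 in Nr4a-TKO. Of 15 genes linked to Diamond-Blackfan anaemia, 0 were past 1.5-fold on either pair, with medians of 0.01 and 0.15. The 4 genes on the X chromosome (Rpl10, Rpl36a, Rpl39 and Rps4x) were all below 0 in WT, from -0.49 to -0.03. In WT 38 of 77 core genes and 616 of the 865 bright genes were below 0 as well. In Nr4a-TKO the 4 genes lay from -0.18 to 0.02 with 3 below 0, beside 21 of 77 core genes and 527 of the 865 bright genes.

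By subunit, 31 core genes of the 40S had a median of -0.08 in WT and 0.05 in Nr4a-TKO, and 46 of the 60S had 0.06 and 0.14. Brighter members had slightly lower changes: over 76 core genes the rho between the mean level and the change was -0.36 in WT and -0.41 in Nr4a-TKO. The part of probe brightness in the small differences was not tested.

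The start of the transcript was read for TOP-like runs, in RefSeq's promoter windows of GRCm38.p6, which hold 63 of the 84 genes. A run was counted where, on the gene's strand, a C within 5 bases of the annotated start was followed directly by at least 4 more C or T letters, at any of a gene's listed starts and whatever letters came before that C. Of the 63 members, 29 (46.0%) had such a run against 21.2% of 27025 genes, and in 13 (20.6%) against 3.01% the first annotated base was itself such a C, mostly inside a stretch that began upstream. Of 67 mitochondrial ribosomal protein genes, 17 (25.4%) had a run in the window and 0 such a C at the first base. The windows below show 15 bases before the start and 15 from the start on, with the counted run in capitals. In Rpl35 the pyrimidines go on upstream of the run. The windows are those of 4 core genes with a run and of Rpl7l1, which has none. They lie at chr14:18270972-18271001 (minus strand), chr4:86857353-86857382 (minus), chr2:39005117-39005146 (minus), chr7:4792950-4792979 (plus) and chr17:46782642-46782671 (minus).
Rpl15: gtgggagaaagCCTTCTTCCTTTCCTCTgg
Rps6: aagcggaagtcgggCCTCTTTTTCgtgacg
Rpl35: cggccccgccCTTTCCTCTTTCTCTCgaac
Rpl28: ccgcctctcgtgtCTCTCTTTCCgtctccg
Rpl7l1: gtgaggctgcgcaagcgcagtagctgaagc

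The changes at 3 h of core genes with a run overlapped those of genes without. The median was -0.05 for 27 genes with a run and 0.01 for 30 without in WT, and 0.07 and 0.16 in Nr4a-TKO. All 27 genes with a run lay between -0.49 and 0.54 in WT. The 30 without lay between -0.27 and 1.49, the upper end being the bound for the dim Rpl37 probe. The 2 paralogue-like genes with a run in the window, Rps27l and Rpl22l1, were among 6 matched, and 0 of the 6 had such a C at the first base. Rps27l differed by 2.48 in WT and 2.29 in Nr4a-TKO at 3 h, and Rpl22l1 by -0.12 and 0.10. A run at an annotated start is a match of letters and not a measured transcript end.

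Probes of the same gene did not always move together at 3 h. The files list a RefSeq mRNA for 137 probes of the core genes and only another transcript, such as an Ensembl model or a cDNA clone, for 37 probes of 32 genes. This split was made after the values were seen. In WT, 6 of 36 measured probes of the second kind were more than 2-fold higher at 3 h against 1 of 137 of the first kind, which was the Rpl37 probe. In Nr4a-TKO the counts were 2 of 36 and 1 of 137. No probe of either kind was more than 2-fold lower.

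The 6 probes belonged to Rps24 (2.18 in WT and 2.39 in Nr4a-TKO), Rpl6 (1.79 and at least 0.80), Rps12 (1.42 and 1.60), Rpl13 (1.36 and 0.51), Rpl41 (1.17 and 0.92) and Rpl7 (1.02 and 0.72). The Rps24 probe, listed with a predicted transcript, had levels of -1.69 and -1.56 on the naive arrays (WT first) and of 0.48 and 0.83 at 3 h, so both 3 h arrays were above both naive arrays. The Rps12 probe, listed with a cDNA clone, had levels of 1.37 and 1.1 on the naive arrays and 2.80 and 2.70 at 3 h, while the brightest Rps12 probe differed by 0.24 and 0.19. These probes were dimmer in signal than the others: the median of the mean level was 2.76 for the second kind and 6.06 for the first. Of the 18 probes of the second kind with a mean level of 3 or above, 0 were past 2-fold higher in WT, and of the 6 of the first kind below 3, 1 was. The part of brightness in this difference was not tested.

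**Figure D4:**
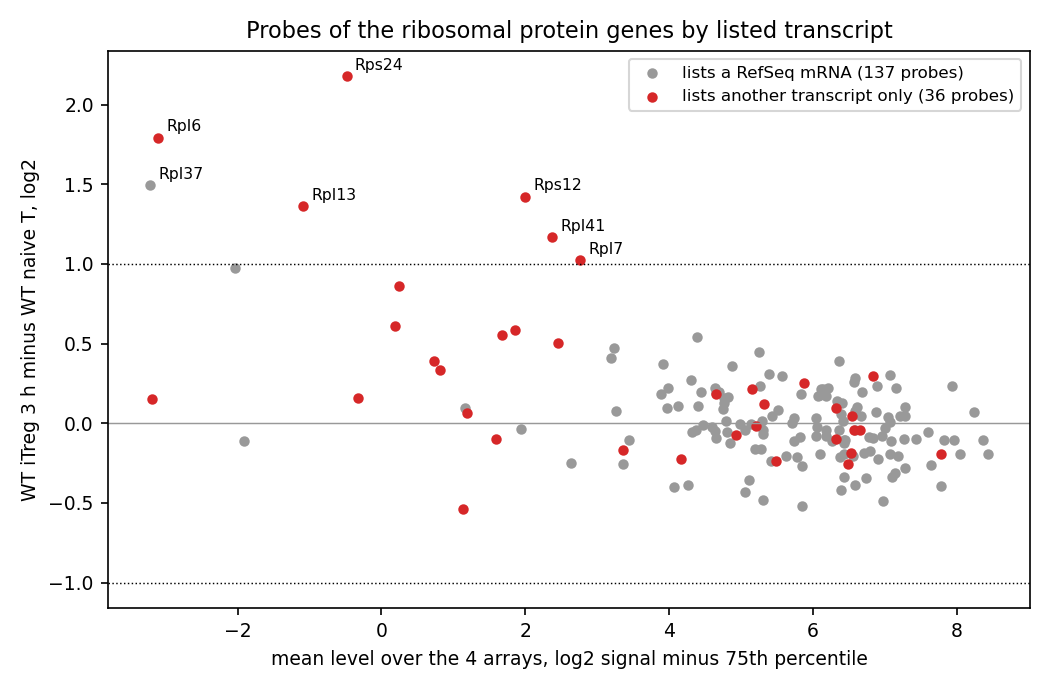
Change at 3 h in WT (log2, vertical) against the mean level over 4 arrays (horizontal) for 173 probes of the core genes, with probes that list a RefSeq mRNA in grey and those that list another transcript only in red; dotted lines are 2-fold. The 6 red probes above the upper line have mean levels under 3, and the 1 grey probe above it is that of Rpl37.

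The second question was whether loss of Nr4a factors alters these genes, in naive T cells and at 3 h. In naive T cells 0 of 81 measured members differed more than 2-fold in either direction, where 2.73% of 26454 genes were past 2-fold higher on the Nr4a-TKO array and 2.57% lower. Of the 865 bright genes, 0.00% were higher and 0.116% lower. The members' median was -0.06, beside -0.01 over all genes, and 57 of 81 were below 0. At 3 h, 0 of 83 were higher and 1 was lower, the bound for Rpl3l given above, where 2.74% of 26928 genes were higher and 2.63% lower. Of the bright genes 0.116% were higher and 0.00% lower. The members' median at 3 h was 0.06, beside 0.02 over all genes, and 59 of 83 were above 0. The bright genes had a median of 0.05 at 3 h with 600 of 865 above 0, close to the members, and a median of -0.01 in naive T cells with 472 of 865 below 0. Under the RMA steps the members' medians were -0.0237 in naive T cells and 0.0105 at 3 h. The 5 B cell markers were higher on the Nr4a-TKO array at 3 h, by 0.06 to 1.45 with 2 past 2-fold, and in naive T cells ranged from -0.56 to 1.58 with 1 past 2-fold, and their part in these differences was not tested.

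Rplp0, the base of the 60S stalk and a frequent reference gene, was the lowest member of those measured on the 4 arrays in both comparisons. Its only probe, on 1 spot, had levels of 4.62 on WT naive T, 4.13 on Nr4a-TKO naive T, 4.57 on WT iTreg 3 h and 4.20 on Nr4a-TKO iTreg 3 h. Both Nr4a-TKO arrays were below both WT arrays, by -0.49 in naive T and -0.38 at 3 h, several times the single-spot SD of 0.06. That SD covers neither mice, cultures nor differences between probes of a gene, and Rplp0 was named because it was the lowest member. Rps13, of the 40S subunit, differed by -0.28 and -0.15 from 10 spots, with -0.13 and 0.14 from its second probe. Rps12 differed by 0.28 and 0.23, and its second probe by -0.27 and -0.09. At 3 h, Rps27l differed by -0.31, with -0.17 from its second probe, and Rps4l, from its only probe, by 0.33. Rpl37 differed by 0.41 at 3 h, from the dim single spot described above.

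At 3 h, Rpl3 was 0.29 higher on the Nr4a-TKO array, and its 3 probes gave from 0.29 to 0.33. Rpl39 was 0.24 higher, with all 5 probes above 0, from 0.11 to 0.26. In naive T cells these genes differed by -0.09 and -0.10. The difference between the genotype differences at the 2 stages was not tested, since no array has a replicate. The remaining members among the 5 farthest in either direction lay between -0.21 and 0.17: Rps26 (0.17), Rpl36a (0.16), Rpl14 (0.14), Rpl6 (-0.21), Rpl27 (-0.20) and Rps27 (-0.19) in naive T cells, and Rpl29 (-0.15) and Rpl18 (-0.11) at 3 h.

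The probes of Rplp1, the partner of Rplp2 in the stalk, went in opposite directions. The brightest probe, on 10 spots, had levels of 4.94 on WT naive T, 5.24 on Nr4a-TKO naive T, 4.90 on WT iTreg 3 h and 5.16 on Nr4a-TKO iTreg 3 h, which is 0.30 and 0.26 higher on the Nr4a-TKO arrays. A second probe that overlaps it was 0.35 and 0.32 higher. The third, listed with no RefSeq mRNA, had levels of 5.17 and 4.70 on the naive arrays (WT first) and of 5.10 and 4.75 at 3 h, differences of -0.48 and -0.35. All 3 differed by at most 0.12 in size between 3 h and naive on both pairs. The overlapping probes share 43 bases (capitals), 42 of them identical, with the substitution G33T counted from the 5′ end of the first; they lie on the minus strand at chr9:61761276-61761701 and chr9:61761259-61761318 (mm9).
Rplp1, second probe: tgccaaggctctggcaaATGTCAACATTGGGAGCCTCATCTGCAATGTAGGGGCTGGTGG
Rplp1, brightest probe: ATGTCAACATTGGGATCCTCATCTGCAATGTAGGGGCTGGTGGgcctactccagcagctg

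The probes of Rps2 also differed, and in naive T cells one of them had the largest genotype difference of any core probe. Its brightest probe differed by -0.00 in naive T and 0.03 at 3 h. Another probe listed with the same RefSeq mRNA had levels of 3.73 on WT naive T, 2.21 on Nr4a-TKO naive T, 4.14 on WT iTreg 3 h and 2.71 on Nr4a-TKO iTreg 3 h, so both Nr4a-TKO arrays were lower, by -1.52 and -1.42. Within each genotype the 2 probes gave similar changes at 3 h (0.54 and 0.41 in WT, 0.57 and 0.51 in Nr4a-TKO). The files place the brightest probe at chr17:24857583-24857642 and the other at chr17:42864841-42864900 (mm9, plus strand), a different site of the same chromosome, and what the second probe reads there was not tested.
Rps2, brightest probe: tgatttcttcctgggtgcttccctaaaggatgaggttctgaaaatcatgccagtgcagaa
Rps2, other probe: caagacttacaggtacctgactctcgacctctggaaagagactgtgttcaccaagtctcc

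**Figure D5:**
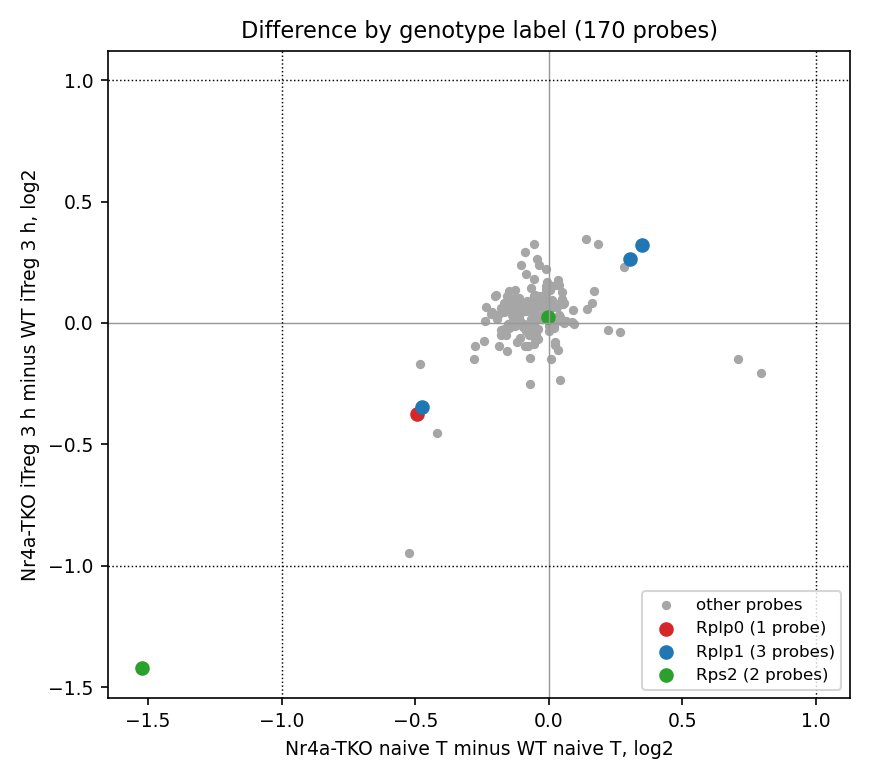
Difference between the arrays labelled Nr4a-TKO and WT (log2) in naive T (horizontal) and at 3 h (vertical) for 170 core probes that passed the background filter on every array; dotted lines are 2-fold. Most probes lie near 0, the 3 Rplp1 probes fall on both sides of it, and 1 Rps2 probe lies at -1.52 and -1.42 while the other is at 0.

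Across 76 core genes, the genotype differences in naive T and at 3 h, which share no array, had an r of 0.47 and a rho of 0.25, and 32 of 76 had the same sign. Over the 44 core genes with 2 suitable probes, the r between probes was 0.25 in naive T and 0.32 at 3 h, with a rho of 0.61 and 0.50 and a median gap of 0.05 in both. The widest gap, 1.52 in naive T, was that of Rps2. Among core probes listed with a RefSeq mRNA, the Rps2 probe was the 1 past 2-fold in each comparison. Among the 36 measured probes listed with another transcript only, 0 were past 2-fold in naive T and 1 at 3 h, a dim Rpl6 probe at -1.46 with levels of -1.41 on WT iTreg 3 h and -2.87 on Nr4a-TKO iTreg 3 h.

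The other lists gave few genotype differences past 2-fold. In naive T cells 1 of 76 mitochondrial ribosomal protein genes (Mrpl10, -1.86) and 1 of 14 regulators of TOP mRNAs (Rptor, -1.47) were lower and none higher, and 0 of 30 biogenesis factors, 0 of 10 escort factors and 0 of 16 other TOP mRNAs were past 2-fold. At 3 h there was none in these lists, and the biogenesis factors had a median of -0.10 beside 0.06 for the ribosomal protein genes. Mrpl10 had a level of 2.01 on WT naive T, 0.15 on Nr4a-TKO naive T, and 0.08 and 0.34 on the 3 h arrays (WT first). It is also the 1 mitochondrial ribosomal protein gene more than 2-fold lower at 3 h in WT (-1.93), and both its values use the WT naive T array.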

How the data were processed

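The members and gene lists were chosen with earlier results of these data known. Cy3-labelled cRNA from 100 ng RNA was hybridised to Agilent arrays, 1 per group, on 1 slide in 1 scan. The authors deposited spot intensities from Agilent Feature Extraction 11.5.1.1: mean and background intensity, the processed intensity, from which the scanner software had removed background and spatial trend, and spot flags, with probe coordinates on mm9. The authors also deposited a log2 value table; their methods name RMA, but its values equal log2 processed intensity minus the array's 75th percentile (SD of the gap 0.0029), with medians of -2.16 and -2.17 for the naive arrays (WT first) and -2.33 and -2.28 for the 3 h arrays.

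From the processed intensity, spots without an outlier flag (115 to 160 flagged per array) were averaged per probe on the log2 scale and each array's 75th percentile over 56605 probes was subtracted. A gene took its brightest probe. A difference needed 1 of 2 arrays well above background (64.9% to 67.6% of probes per array); the dim side was raised to the array's lowest such signal (-3.97 to -3.63), giving a bound. The threshold was 2-fold. Gene symbols are those of the files, apart from Rack1 (listed there as Gnb2l1), and all 84 members match the RefSeq table of GRCm38.p6. Of 182 member probes, 16 also list another gene or pseudogene and 7 (of Rpl13, Rpl36, Rps27 and Rps29) are placed on another chromosome than RefSeq's.

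Named members were the 5 farthest in each direction per difference among those well above background on 4 arrays, members dim on any array, paralogue-like genes with their namesakes, and Rpsa, Rplp0, Rplp1, Rplp2, Rpl5, Rpl11, Rps6 and Rps27a. Genes of other lists were named as examples of those past 2-fold, picked after their values were seen, as were others (Eef1a1, Eef2, Fau, Rack1, Rpl36al, Bop1, Ubtf and the probes of Rps24, Rpl13 and Rpl41). The lists were other ribosome genes, other TOP mRNAs, chaperones, biogenesis factors, TOP regulators, surveillance genes, mitochondrial ribosomal proteins, reference genes and cell markers; 1 listed gene is not reported here. Of 6 reference genes 1 (Hprt, 1.15) was past 2-fold at 3 h in WT. The alternatives were RMA steps, normexp with an offset of 50, no background correction, the deposited table, another centre, the mean of all probes, a stricter filter, no filter, and thresholds of 1.5-fold and 3-fold. Tools were Python 3.11.15, pandas 2.3.3, numpy 2.4.6, scipy 1.17.1, matplotlib 3.10.9, R 4.3.3, limma 3.58.1 and the data.table package (1.17.8). The difference and counting steps were tested on simulated data.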

Additional observations from a re-analysis of the deposited data

How the results depend on the processing

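The counts of ribosomal protein genes past 2-fold and their median differences were recomputed under 10 alternatives. The count of genes more than 2-fold higher at 3 h in WT, 4, was 2 with a normexp offset of 50 and 2 when a probe had to be well above background on all 4 arrays, which leaves out the bounds for Rpl37 and Rpl3l. The 1 gene lower on Nr4a-TKO at 3 h, Rpl3l, became 0 under both. The Nr4a-TKO median at 3 h, 0.0977, was 0.0113 under the RMA steps and 0.0113 with an offset of 50; the cause was not tested. Under the RMA steps the genotype medians, -0.0556 in naive T cells and 0.0562 at 3 h, were -0.0237 and 0.0105. The WT median, 0.01, was -0.0032 under that stricter filter, on the other side of 0. The all-gene medians lay within 0.1 of their main values under each alternative (-0.19 in place of -0.10 in WT with no filter). Of 40 values of named members, 38 kept their sign under every setting that gave a value, and the exceptions were the Nr4a-TKO changes of Rps29 (0.14) and Rpl12 (0.16) when all probes of a gene were averaged. No paired analysis was possible because each group has 1 array. With 1 array per group, differences under the 2-fold threshold have only the spread between spots as a scale, which covers neither mice nor cultures, and the 75th-percentile scaling removes any change common to all genes.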
